A study of Mus musculus with 8 samples.

Results

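Skeletal muscle genes were followed here in 8 mammary tumour samples of mice, as a measure of the muscle tissue in each sample and of its fibre type. The set is a list of 36 gene symbols for the contractile filaments of the sarcomere and the proteins that anchor, trigger and fuel it. All 36 had at least 1 probe annotated to that symbol alone, among 18193 genes with such a probe. The samples were tumours of female MMTV-PyMT mice (FVB/N-Tg(MMTV-PyVT)634Mul/J), in which the MMTV promoter drives the polyoma virus middle T antigen in the mammary epithelium of every animal, controls included. The 4 vehicle samples came from vehicle-treated mice, and the 4 SKI-606 samples from mice gavaged with 100 mg/kg of SKI-606, the Src and Abl kinase inhibitor bosutinib, in methocellulose and Tween 80. The sources used here give no ages, treatment times or tumour stages. The labels name mammary tissue and do not mention muscle. They speak of RNA from each mouse without listing the animals, so the p-values cover the spread between these arrays only, and part of it may be technical.

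A skeletal muscle fibre is packed with sarcomeres, in which thick filaments of myosin pull on thin filaments of actin between 2 Z discs. Calcium released from the sarcoplasmic reticulum binds troponin on the thin filament and starts the contraction, and creatine kinase and glycogen breakdown supply the ATP. Fast and slow fibres use different isoforms of most of these proteins, each from its own gene, so that the isoforms show the fibre type as well as the presence of muscle.

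Most of the set had a large signal in 3 of the 8 samples and little in the others. Vehicle sample 1 and SKI-606 sample 2 had the highest signals, SKI-606 sample 1 came next, and vehicle sample 3 followed at a much lower level. The first 3 of these were the top 3 in all 14 members of the fast fibre type and in 13 of the 16 counted as of no single type. They were so in 1 of the 6 members counted as slow, which stayed at 52.0 or below in every sample. Mybpc1, named the slow myosin-binding protein C, was counted among the 16. It had the same top 3, with 72.1 in vehicle sample 1. Each treatment group held both muscle-rich and muscle-poor samples, and limma called no member between SKI-606 and vehicle.

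The signals are Affymetrix array signals recovered from the deposited ratios, on a scale whose array medians lay between 15 and 23, and quantile normalised between the arrays. A probe's signal depends on its sequence as well as on the transcript, so levels are compared between samples and not between genes. No detection calls were used, and a signal of 50 serves below only as a mark for describing dim genes. It was reached in at least 1 sample by 30 of the 36 members, and not by Myh7, Myh8, Myl2, Myl3, Tnnt1 and Tnni1. The luminal epithelial list was similar in all samples, with a mean log2 level from 11.17 to 11.44. Squamous keratin genes were high in vehicle sample 3 and SKI-606 samples 1 and 4, whose list scores were 9.48, 9.84 and 9.98 against at most 6.78 elsewhere.

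Among thin filament genes, actin showed the pattern clearly. Acta1, the skeletal muscle alpha-actin, had signals of 5704, 31.0, 536 and 125 across vehicle samples 1 to 4 and of 2519, 4105, 64.2 and 12.4 across SKI-606 samples 1 to 4. Each group therefore held very bright samples and samples near the floor, and the groups overlapped over nearly their whole range. In bulk tissue, fewer muscle cells and less muscle RNA per cell cannot be told apart. The group means of Acta1 were 1599 ± 2745 for vehicle and 1675 ± 1998 for SKI-606 (SD, n = 4 each), with a log2 fold change of 0.05 ± 1.85 and an adjusted p of 0.995 in limma.

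The 3 fast troponin genes, which encode the calcium switch of the thin filament, had the same samples at the top. Tnnc2, the calcium-binding subunit of fast fibres, stood at 2230.1, 2.0, 154 and 48.0 across vehicle samples 1 to 4 and at 652, 1787, 20.8 and 5.5 across SKI-606 samples 1 to 4. For Tnni2, the inhibitory subunit, the vehicle signals were 2199.9, 3.1, 183 and 131 and the SKI-606 signals 539, 1339.5, 36.1 and 29.9. Tnnt3, the tropomyosin-binding subunit, showed 1136, 2.0, 76.5 and 14.5 in vehicle and 353, 960.4, 10.1 and 1.2 in SKI-606 samples. In all 3 genes vehicle sample 1 and SKI-606 samples 2 and 1 were the top samples, and vehicle sample 2 and SKI-606 sample 4 were among the lowest. A second probe of Tnni2 gave 1160.2, 3.1, 72.2 and 49.1 in vehicle and 203, 733, 4.1 and 8.0 in SKI-606 samples, the same order at the top, while the remaining probe stayed at or below 4.4. Neb, the nebulin that spans the thin filament, stood at 72.1, 0.2, 7.0 and 1.0 in vehicle and 9.1, 36.9, 9.1 and 4.1 in SKI-606 samples.

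The slow troponin genes had another order. Tnni1 had signals of 11.4, 2.0, 2.4 and 3.6 across vehicle samples 1 to 4 and 46.9, 2.4, 5.0 and 15.5 across SKI-606 samples 1 to 4. Tnnt1 had 12.4, 6.2, 3.0 and 2.5 in vehicle and 30.2, 14.4, 11.4 and 6.6 in SKI-606 samples. For Tnnc1, which cardiac muscle also uses, the vehicle signals were 20.6, 7.0, 15.5 and 22.2 and the SKI-606 signals 52.0, 12.4, 6.1 and 24.6. All 3 were highest in SKI-606 sample 1, and vehicle sample 1, with the most fast troponin, had at most 20.6 of any of them. Tnnt1 had SKI-606 sample 2 and vehicle sample 1 next, as the fast genes' top samples, at 14.4 and 12.4. Tnnt1 had the smallest unadjusted p of the 36 members, 0.064, with a log2 fold change of 0.49 ± 0.23 and an adjusted p of 0.496 in limma, on signals that never passed 30.2. Tnni1 stood at 0.53 ± 0.35 on the log2 scale and turned to -0.12 without vehicle sample 3 and SKI-606 samples 1 and 4.

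Among thick filament genes, the fast regulatory light chain Mylpf had signals of 3488, 6.2, 243 and 63.2 across vehicle samples 1 to 4 and 908, 1488, 43.4 and 21.4 across SKI-606 samples 1 to 4. Myl1, the essential light chain of fast fibres, read 2488, 12.4, 51.4 and 27.4 in vehicle and 550.4, 1541, 14.4 and 4.1 in SKI-606 samples. Mybpc2, the fast myosin-binding protein C, read 549.9, 9.1, 46.5 and 23.5 in vehicle and 209, 605, 14.4 and 21.4 in SKI-606 samples. SKI-606 sample 2 was slightly above vehicle sample 1 for Mybpc2 and well below it for both light chains. Mybpc1, named the slow myosin-binding protein C, had the same 3 samples at the top, with 72.1, 13.4, 4.9 and 7.0 in vehicle and 37.4, 62.2, 8.0 and 8.0 in SKI-606 samples. Its other 2 probes never passed 32.4, and both were highest in vehicle sample 1.

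The myosin heavy chains, the motor subunits, separate the fibre types most finely. Myh4, the heavy chain of the fastest fibres (type IIb), had signals of 2223, 11.4, 215 and 10 across vehicle samples 1 to 4 and 281, 2103, 29.8 and 6.6 across SKI-606 samples 1 to 4. Myh1, of type IIx fibres, had 1065, 13.4, 65.8 and 14.5 in vehicle and 379.5, 555, 13.4 and 4.1 in SKI-606 samples. Myh2, of type IIa fibres, had 154, 2.0, 1.8 and 4.5 in vehicle and 43.2, 76.0, 6.1 and 2.8 in SKI-606 samples. All 3 fast heavy chains were present in the muscle-rich samples, but not in the same proportion. SKI-606 sample 2 held 94.6% of the Myh4 signal of vehicle sample 1, but 52.1% of its Myh1 and 49.5% of its Myh2 signal. SKI-606 sample 1 held 12.6% of the Myh4 signal, but 35.6% of Myh1 and 28.1% of Myh2. In vehicle sample 3 Myh4 stood at 9.6% and Myh1 at 6.2% of vehicle sample 1, and Myh2 at the floor. The other bright probe of Myh1 gave 1029, 1.1, 71.1 and 19.8 in vehicle and 362, 504, 8.0 and 2.8 in SKI-606 samples. The other Myh4 probe was dim. It read 41.8 in vehicle sample 1, and 29.5 and 49.9 in SKI-606 samples 1 and 2, and did not show the low share in SKI-606 sample 1. The fast heavy chains are close paralogs in 1 gene cluster, and probes can bind more than 1 of them, so the split between them is uncertain.

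The slow myosins and the perinatal heavy chain among the members stayed below a signal of 50 in every sample. Myh7, the slow and cardiac heavy chain, had signals of 9.1, 3.1, 8.2 and 5.5 in vehicle and 5.6, 2.4, 11.4 and 4.1 in SKI-606 samples. Myl2, the slow regulatory light chain, had 13.4, 6.2, 1.1 and 1.0 in vehicle and 3.4, 9.1, 1.1 and 8.0 in SKI-606 samples. Myl3, the slow essential light chain, stood at 23.6, 28.4, 33.5 and 34.0 in vehicle and 16.5, 14.4, 18.6 and 33.1 in SKI-606 samples, with no excess where Myl1 was high. Its log2 fold change was -0.34 ± 0.18, with an adjusted p of 0.521 in limma. Myh8, the perinatal heavy chain, stood at 7.0, 9.1, 7.9 and 23.5 in vehicle and 19.6, 3.6, 1.1 and 8.0 in SKI-606 samples. Myl4, an embryonic and atrial light chain outside the set, did pass 50, with 58.4 in vehicle sample 4 and 108 in SKI-606 sample 1. A probe that is dim in every sample gives no measure of that isoform here, and whether these probes would detect slow muscle was not tested.

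**Figure D1:**
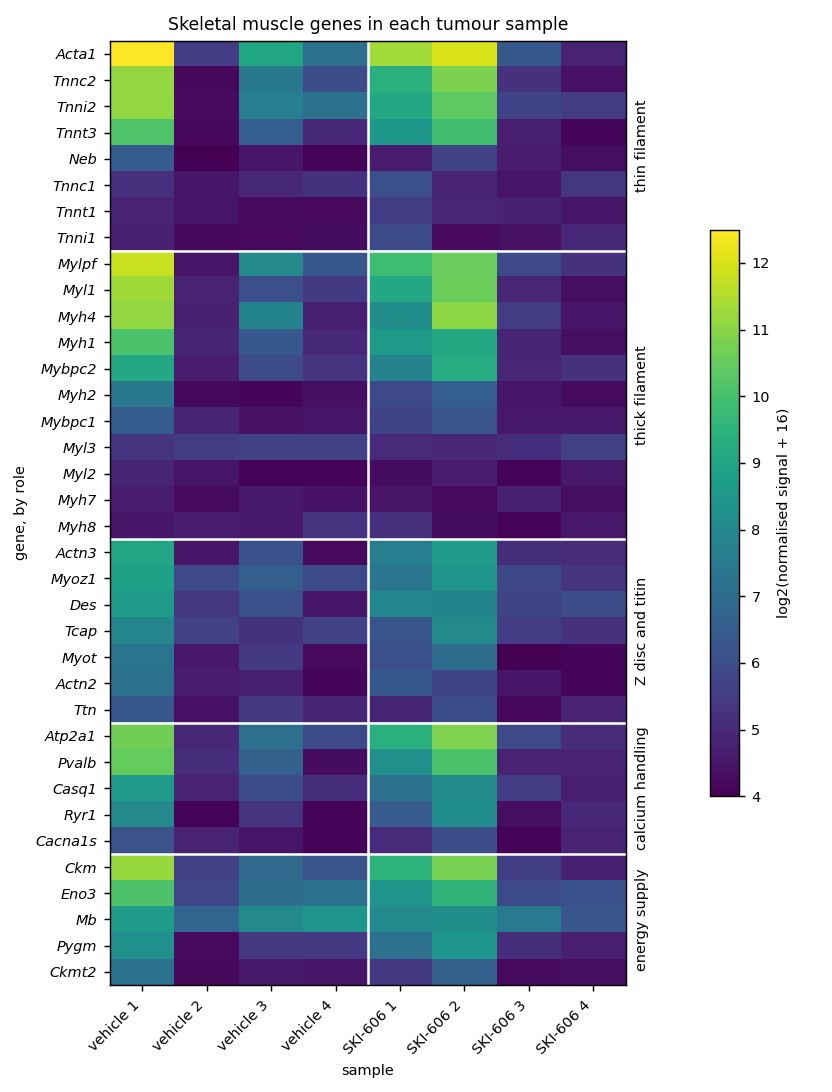
Heat map of the 36 members by role (rows) in the 8 samples (columns), coloured by log2 of the normalised signal plus 16. Vehicle sample 1 and SKI-606 samples 2 and 1 are bright for most rows, while the slow isoforms (Myh7, Myl2, Myl3, Tnnt1, Tnni1, Tnnc1) are dark throughout.

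The stretches just before the transcription start of 4 bright fast-type or common members and of 1 slow member are shown because these 4 genes varied together over the samples while the slow one did not. They are RefSeq promoter sequences of build GRCm38.p6, 250 bases up to the base before the annotated start, 5′ to 3′ on the gene's strand. Acta1 is at chr8:123894776-123895025 (minus strand), Mylpf at chr7:127211358-127211607 (plus), Myh4 at chr11:67237562-67237811 (plus), Atp2a1 at chr7:126463074-126463323 (minus) and Tnnc1 at chr14:31208062-31208311 (plus). Capitals mark the E-box letters CANNTG, the core bound by the MyoD family of muscle factors, and matches to the MEF2 site and to the CArG box, which binds serum response factor.
Acta1: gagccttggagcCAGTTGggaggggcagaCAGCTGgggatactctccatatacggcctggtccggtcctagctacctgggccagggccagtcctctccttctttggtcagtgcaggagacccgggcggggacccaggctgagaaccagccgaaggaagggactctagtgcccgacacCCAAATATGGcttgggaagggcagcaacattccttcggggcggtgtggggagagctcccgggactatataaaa
Mylpf: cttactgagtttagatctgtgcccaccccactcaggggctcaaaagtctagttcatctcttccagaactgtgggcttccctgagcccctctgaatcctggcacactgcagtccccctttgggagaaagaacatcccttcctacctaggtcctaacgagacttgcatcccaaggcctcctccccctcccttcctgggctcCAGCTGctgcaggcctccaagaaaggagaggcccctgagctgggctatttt
Myh4: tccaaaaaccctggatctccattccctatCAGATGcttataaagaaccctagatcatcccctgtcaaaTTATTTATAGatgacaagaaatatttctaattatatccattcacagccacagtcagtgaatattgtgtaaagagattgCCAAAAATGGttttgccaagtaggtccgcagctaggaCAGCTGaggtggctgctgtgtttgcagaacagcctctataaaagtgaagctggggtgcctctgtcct
Atp2a1: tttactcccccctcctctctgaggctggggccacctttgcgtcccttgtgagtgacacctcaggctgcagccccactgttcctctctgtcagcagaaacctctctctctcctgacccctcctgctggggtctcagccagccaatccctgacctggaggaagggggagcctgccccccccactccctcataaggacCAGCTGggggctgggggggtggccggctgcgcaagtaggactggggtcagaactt
Tnnc1: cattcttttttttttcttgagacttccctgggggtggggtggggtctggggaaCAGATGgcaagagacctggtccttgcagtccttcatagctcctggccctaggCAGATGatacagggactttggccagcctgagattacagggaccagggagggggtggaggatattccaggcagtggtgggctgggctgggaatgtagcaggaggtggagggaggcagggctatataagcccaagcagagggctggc

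Each of the 4 promoters of the genes that varied together held 1 E-box with the letters CAGCTG, at -221 in Acta1, -51 in Mylpf, -67 in Myh4 and -55 in Atp2a1, counted from the start, while both E-boxes of the slow Tnnc1 had other middle letters. Acta1 and Myh4 also held a CArG box, at -73 and -104, and Myh4 a MEF2 site at -182. Of the 36 members, 29 had at least 1 RefSeq promoter, with 35 promoters between them, and Tnnt3, Tnni2, Neb, Actn3, Tcap, Myoz1 and Myot had none in the table. The letters CAGCTG were found in 17 of the 35 (48.6%), from 15 of the 29 members, against 13.0% of all 32851 promoters. Many members thus lacked them. The promoters printed above are only a few of these, so they cannot show whether CAGCTG separates genes that varied together from slow ones. That was not tested. Any E-box, which includes CAGCTG, was found in 88.6% against 66.2%. The MEF2 site was found in 14.3% against 2.92%, the CArG box in 8.57% against 1.47%, and the MCAT letters CATTCC in 28.6% against 12.6%. All motifs were searched on both strands. A match is a description of the letters and does not show that a factor binds there.

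Most Z disc genes showed the same top samples, whereas titin did so only in part. Actn3, the alpha-actinin of fast fibres, had 504, 6.2, 53.8 and 2.5 across vehicle samples 1 to 4 and 183, 399, 18.6 and 16.5 across SKI-606 samples 1 to 4. Myoz1, a Z disc protein of fast fibres, had 446, 43.2, 78.6 and 44.4 in vehicle and 147, 321, 41.1 and 23.8 in SKI-606 samples. In both genes vehicle sample 1 was highest, followed by SKI-606 samples 2 and 1 and then vehicle sample 3. Actn2, the alpha-actinin of all fibres, read 124, 9.1, 10.1 and 1.6 in vehicle and 64.5, 37.8, 7.0 and 1.2 in SKI-606 samples, with more in SKI-606 sample 1 than in SKI-606 sample 2. Tcap, the titin cap, read 218, 33.6, 21.9 and 34.0 in vehicle and 57.1, 239, 28.5 and 21.4 in SKI-606 samples. Myot, myotilin, read 141, 8.1, 27.5 and 2.5 in vehicle and 50.9, 111, 0.2 and 1.2 in SKI-606 samples. Vehicle sample 1 was the highest sample for all of these but Tcap, in which SKI-606 sample 2 was slightly higher. Ttn, titin, had 63.2, 5.2, 26.2 and 13.4 in vehicle and 13.4, 49.9, 2.0 and 12.4 in SKI-606 samples, so that SKI-606 sample 1 was not among its top 3. A further Ttn probe gave 99.9, 9.1, 11.4 and 10.4 in vehicle and 8.0, 45.4, 5.0 and 1.2 in SKI-606 samples.

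Des, desmin, the intermediate filament that ties Z discs together, had 382, 24.4, 51.4 and 7.0 across vehicle samples 1 to 4 and 237, 209.9, 37.1 and 47.9 across SKI-606 samples 1 to 4. SKI-606 samples 1 and 2 were closer together for Des than for the fast genes. Desmin is also a smooth muscle protein. The smooth muscle list, which includes Des itself, was highest in SKI-606 sample 1, at 8.01 against 6.08 to 7.20 in the others. The part of smooth muscle in the desmin signal was not tested. Des had the highest log2 fold change of the 36 members, 0.74 ± 0.85 (95% interval -1.18 to 2.66), with an adjusted p of 0.771 in limma. That value was 1.57 without vehicle sample 1 and 0.20 without vehicle sample 4.

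Calcium handling genes were muscle-rich in the same 3 samples. Atp2a1, the fast calcium pump SERCA1, had 1581, 15.5, 125 and 44.4 across vehicle samples 1 to 4 and 652, 1834, 43.4 and 17.5 across SKI-606 samples 1 to 4. Pvalb, parvalbumin, a calcium buffer of fast fibres, had 1434, 18.5, 80.9 and 3.6 in vehicle and 295, 1080.2, 12.4 and 12.4 in SKI-606 samples. Casq1, the fast calsequestrin that stores calcium, had 373, 12.4, 48.9 and 18.6 in vehicle and 125, 251, 29.8 and 10.1 in SKI-606 samples. Vehicle samples 2 and 4 and SKI-606 samples 3 and 4 stayed below 50 in all 3. Ryr1, the calcium release channel, read 242, 1.1, 23.9 and 1.0 in vehicle and 71.1, 264, 4.1 and 15.5 in SKI-606 samples. For Atp2a1 and Ryr1 SKI-606 sample 2 was above vehicle sample 1, and for Pvalb and Casq1 below it. Cacna1s, the voltage sensor of the T tubule, reached 55.5 in vehicle sample 1 and 48.9 in SKI-606 sample 2, and stayed at 16.5 or below in the others.

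The energy supply genes followed, with 1 exception. Ckm, the muscle creatine kinase, had 2314, 34.8, 103 and 58.4 across vehicle samples 1 to 4 and 709, 1702, 31.6 and 11.4 across SKI-606 samples 1 to 4. Eno3, the muscle enolase, had 1098, 40.5, 118 and 129 in vehicle and 319, 738, 44.5 and 55.0 in SKI-606 samples. In Eno3 vehicle sample 4 was slightly above vehicle sample 3. Pygm, the muscle glycogen phosphorylase, read 290.4, 3.1, 27.5 and 27.4 in vehicle and 125, 337, 18.6 and 10.1 in SKI-606 samples. Ckmt2, the sarcomeric mitochondrial creatine kinase, read 131, 2.0, 8.2 and 6.2 in vehicle and 25.5, 78.9, 3.0 and 4.1 in SKI-606 samples. Mb, myoglobin, an oxygen-binding protein of oxidative fibres, read 389.6, 93.1, 238 and 341 in vehicle and 245, 276, 165 and 62.2 in SKI-606 samples. Vehicle sample 4 had the second highest Mb signal, with 87.6% of that of vehicle sample 1, where its other muscle genes stood at 0.3% to 15.6%. It was lowest for SKI-606 sample 4, at 62.2, and vehicle sample 2, at 93.1, and its other probe stayed at or below 5.6. It had the lowest log2 fold change of the set, -0.47 ± 0.49, with an adjusted p of 0.745 in limma.

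The agreement between the members was close at the top. The 2 highest samples were vehicle sample 1 and SKI-606 sample 2 in 27 of 36 members (75%), against 3.3% of all 18193 genes. The 3 highest were these and SKI-606 sample 1 in 28 members (77.8%), against 1.51% of all genes. Both patterns held for all 14 fast members, and in 13 of them, all but Myh2, vehicle sample 3 came next. Of the 6 slow members 1 had these 3 samples at the top, Tnnt1, with SKI-606 sample 1 the highest at 30.2. A log2 range of at least 4 over the 8 samples was found in 17 members and in 0.753% of all genes. The genes share arrays and tissue, so these counts describe the samples and are not independent tests.

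Between the muscle-rich samples the members differed in proportion. Of the 25 members with a signal of at least 100 in vehicle sample 1, a level chosen after the values were seen, SKI-606 sample 2 held a median of 72.0% of that signal, from 30.5% for Actn2 to 116% for Atp2a1. SKI-606 sample 1 held a median of 31.0%, from 12.6% for Myh4 to 62.8% for Mb, and 62.0% for Des. The dim other probe of Myh4 did not show that low share. Vehicle sample 3 held a median of 8.5%, and vehicle sample 4, SKI-606 sample 3, SKI-606 sample 4 and vehicle sample 2 held 2.2%, 2.3%, 1.4% and 1.3%. The members were kept for being high in vehicle sample 1, which by itself favours low shares in the other samples, so the shares describe these genes only and are no test. No background was subtracted, so the lowest shares include the floor of each probe.

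**Figure D2:**
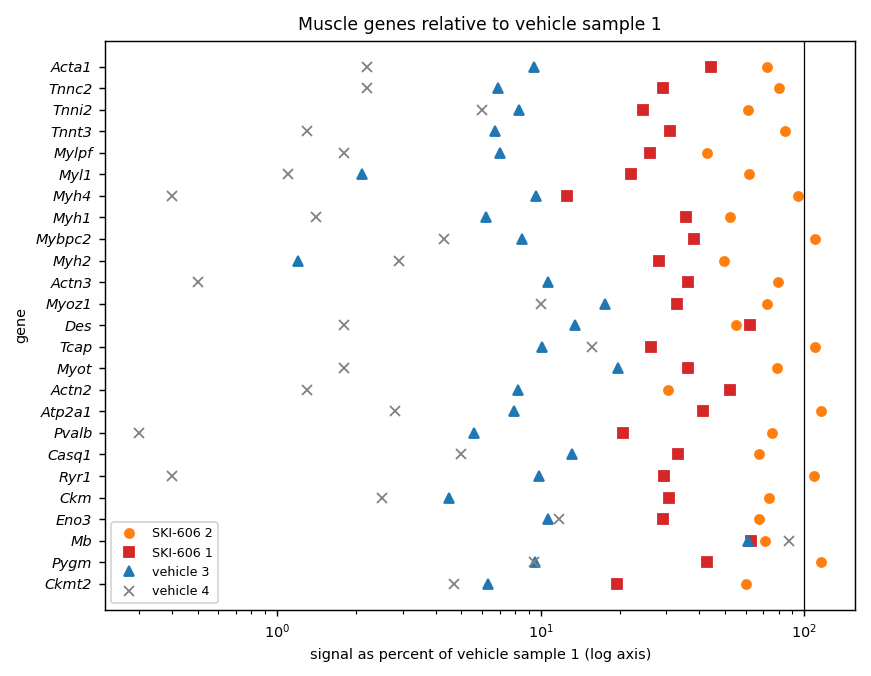
Signal of 25 members (rows) in 4 samples as a percent of the signal in vehicle sample 1, on a log axis, where the vertical line marks 100%. The medians are 72.0% for SKI-606 sample 2, 31.0% for SKI-606 sample 1 and 8.5% for vehicle sample 3. Myh4 has the lowest share in SKI-606 sample 1 (12.6%), and Mb the highest in vehicle samples 3 (61.0%) and 4 (87.6%). The low Myh4 share is that of its brighter probe, and its dim other probe did not show it.

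A score, the mean of log2(signal + 16) over the 36 members, summarised muscle by sample. It was 8.26, 4.79, 5.87 and 5.19 across vehicle samples 1 to 4 and 7.11, 7.85, 5.04 and 4.86 across SKI-606 samples 1 to 4. The group means were 6.03 ± 1.55 and 6.21 ± 1.50 (SD, n = 4 each), a difference of 0.19 with a 95% interval from -2.45 to 2.82. The groups' ranges nearly coincided, and the spread within each was many times the difference between them. The interval leaves room for a difference of more than 2 log2 units in either direction.

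The fast members spread more widely than the slow ones. A signal of 50 was reached by all 14 in both vehicle sample 1 and SKI-606 sample 2. SKI-606 sample 1 had 13 such members, vehicle sample 3 had 11, vehicle sample 4 had 2 and the remaining samples had 0. Their score was 10.06, 4.69, 6.60 and 5.33 across vehicle samples 1 to 4 and 8.31, 9.60, 5.24 and 4.77 across SKI-606 samples 1 to 4. The slow score stayed between 4.56 and 4.94 in vehicle and between 4.60 and 5.22 in SKI-606 samples. The fast minus slow difference was 5.12 for vehicle sample 1, 4.98 for SKI-606 sample 2, 3.09 for SKI-606 sample 1 and 1.98 for vehicle sample 3, and from -0.12 to 0.68 in the others. Its group means were 1.98 ± 2.24 and 2.15 ± 2.33 (SD, n = 4 each), 0.17 apart, with a 95% interval from -3.78 to 4.13. The slow score was low in every sample, so the difference mostly followed the fast score. It cannot show whether fibre type differed between the samples. SKI-606 sample 1, the only one of the 8 with a slow score above 5, had Tnni1, Tnnt1 and Tnnc1 signals of 46.9, 30.2 and 52.0.

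**Figure D3:**
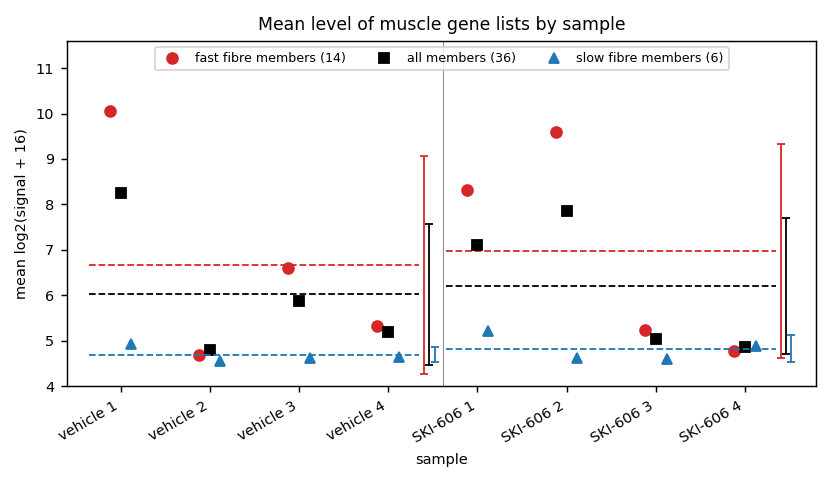
Mean log2(signal + 16) of the fast (circles), all (squares) and slow (triangles) members in each sample, with group means as dashed lines and SD as bars (n = 4 each). The fast score spans 4.69 to 10.06 in vehicle and 4.77 to 9.60 in SKI-606 samples, and the slow score stays between 4.56 and 5.22.

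For SKI-606 against vehicle, limma with Benjamini-Hochberg adjustment called 0 of the 36 members at an adjusted p under 0.05, and 0 of 18193 genes (0% of all genes). At an unadjusted p under 0.05 there were 0 members, against 1889 genes (10.4%). In 0 members did the 4 signals of one group lie all above those of the other, against 804 genes (4.42%). The log2 fold changes of the members ran from -0.47 to 0.74 with a median of 0.19, and 28 were above 0 and 8 below, whereas the median of all genes was -0.02 and 47.1% of them were above 0. By role, 8 of 11 thick filament, 8 of 8 thin filament, 4 of 7 Z disc and titin, 5 of 5 calcium handling and 3 of 5 energy supply genes lay above 0. The smallest adjusted p was 0.496.

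Intervals were wide for the bright genes. The log2 fold change was 0.24 ± 1.64 for Mylpf (95% interval -3.44 to 3.92), 0.21 ± 1.69 for Myh4 (-3.57 to 3.99), 0.63 ± 1.48 for Atp2a1 (-2.69 to 3.94) and 0.16 ± 1.53 for Ckm (-3.28 to 3.60). The direction of the whole set hung on single samples. Its median was 0.93, with 33 of 36 members above 0, without vehicle sample 1, and 0.53 and 0.62 without SKI-606 samples 3 and 4. It was -0.37, with 5 of 36 above 0, without SKI-606 sample 2, and -0.20, -0.13 and -0.08 without vehicle samples 2 and 4 and SKI-606 sample 1, and 0.09 without vehicle sample 3. With array weights it was -0.26. Without both vehicle sample 1 and SKI-606 sample 2 it was 0.40, and 0 members were called.

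**Figure D4:**
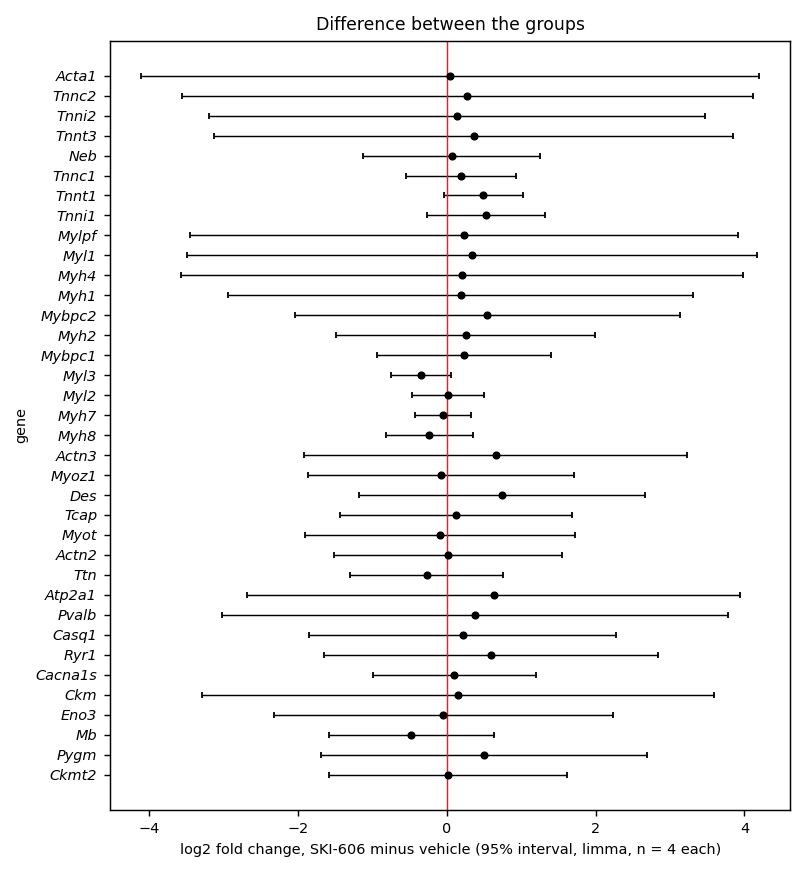
Log2 fold change (SKI-606 minus vehicle) of the 36 members with 95% intervals from limma (n = 4 each). Every interval includes 0, and the intervals of bright genes such as Acta1 are wide, here from -4.11 to 4.20.

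Some genes outside the set varied over the samples much as the set did. The 15 non-member genes most like the score, by Pearson correlation over the 8 samples among 974 genes with a log2 range of at least 2, ran from r = 0.98 for Eef1a2, the elongation factor isoform of muscle and nerve, to r = 0.85 for Itgb1bp2, melusin. Eef1a2 had 426, 62.2, 75.4 and 73.2 across vehicle samples 1 to 4 and 227, 371, 47.9 and 56.9 across SKI-606 samples 1 to 4. Next came Cox6a2, the muscle subunit of cytochrome oxidase, Pgam2, the muscle phosphoglycerate mutase, Smpx, a small muscle protein, and Myom2, an M band protein. The other genes were Hspb6, Ampd1, Klhl40, Asb5, Rpl3l, Hjv, Mybph, Trim63, Synpo2 and Itgb1bp2, and of these Hspb6 and Synpo2 are also in the smooth muscle list. Pgam2 had 319.5, 5.2, 4.9 and 5.5 in vehicle and 122, 198, 5.0 and 8.0 in SKI-606 samples, with vehicle sample 3 no higher than vehicle sample 2. These correlations rest on 8 arrays and largely on 3 of them.

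Lists of related genes, chosen with earlier results of these data known, gave smaller shares, and limma called 0 genes of any of them between the groups. Of 38 measured other sarcomere genes, 15 (39.5%) had vehicle sample 1 and SKI-606 sample 2 as their top samples. Their median log2 fold change was 0.13, and 27 were above 0 and 11 below, where 47.1% of all genes were above 0. Of 25 other muscle energy genes 11 (44.0%) had those top samples, against 3.3% of all genes, with a median of 0.06, and of 24 genes of the triad and of excitability 6 (25.0%), with a median of -0.01. Of 16 myogenic regulators, the transcription factors and signals that make and repair muscle, 3 (18.8%) had them, and 6 reached a signal of 50 in a sample. Of 12 neuromuscular junction and 10 cardiac genes, 0 had them. The muscle energy genes with those top samples include Car3, which fat also expresses, and Cox8b, which is also in the brown fat list. The part of fat in that share was not tested. Of 5 further genes of the slow fibre programme, Casq2, Myoz2 and Myh7b never passed 38.2, whereas Atp2a2 (SERCA2) and Tpm3 (a tropomyosin), which many non-muscle cells also express, were bright in all samples. Atp2a2 lay between 1499 and 2017. Myoz2, though dim, was highest in the samples that led for the fast genes. It had 38.2 in SKI-606 sample 1, 28.5 in vehicle sample 1 and 15.5 in SKI-606 sample 2, and at most 13.4 elsewhere. The cardiac list score lay between 4.66 and 5.21, and was lowest in vehicle sample 1.

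Other tissue markers followed orders of their own. The adipocyte score was 6.81, 5.41, 5.74 and 6.97 across vehicle samples 1 to 4 and 6.12, 7.52, 5.61 and 6.43 across SKI-606 samples 1 to 4, so that SKI-606 sample 2, vehicle sample 4 and vehicle sample 1 led. Its gene Adipoq, adiponectin, had 341, 45.4, 25.0 and 567 in vehicle and 83.5, 1201, 64.2 and 172 in SKI-606 samples. Vehicle sample 4 thus had much fat signal and little muscle signal. The smooth muscle list, which includes Des, had 11 of 12 members above 0, against 47.1% of all genes, with a median of 0.70. Acta2, smooth muscle actin, stood at 622, 763, 1449 and 984 in vehicle and 4051, 1127, 822 and 3210.4 in SKI-606 samples. It was highest in the squamous SKI-606 samples 1 and 4. The fibroblast list had 10 of 10 members above 0, against 47.1% of all genes, with a median of 0.76. In limma 7 of the 10 had an unadjusted p under 0.05, against 10.4% of all genes. The fibroblast score was 0.82 higher in SKI-606 than in vehicle samples (95% interval 0.10 to 1.54). These lists were chosen with earlier results of these data known, so their counts and the interval are no test of treatment. The lowest adjusted p among the fibroblast genes was 0.363 in limma. The fibroblast score was highest in SKI-606 sample 4, at 11.17, a sample with a muscle score of 4.86. Next was SKI-606 sample 1, at 10.83, and both are squamous samples. Of the 3 squamous samples, SKI-606 sample 1 and vehicle sample 3 had muscle scores of 7.11 and 5.87. The part of these tissues in the muscle gene values was not tested.

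**Figure D5:**
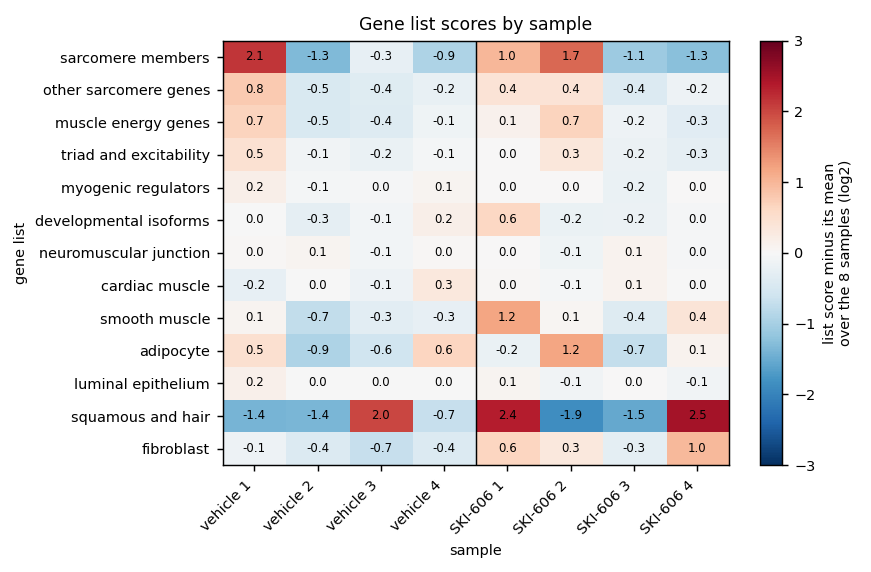
Scores of 13 gene lists (rows) in the 8 samples (columns), each minus its own mean over the samples, in log2 units. Sarcomere members are highest in vehicle sample 1 (2.1) and SKI-606 sample 2 (1.7), the adipocyte list in SKI-606 sample 2 (1.2), and the squamous list in SKI-606 samples 4 and 1 and vehicle sample 3.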

How the data were processed

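The deposited values are linear ratios. How the authors normalised them is not given in the sources used here. From the values, each signal had been divided by its array median and then by its probe's median over the 8 arrays (26196 of 45101 probes) or by a constant. Whole-number signals were recovered with a tolerance of 0.002. They gave back 45101 probes within a relative 0.0001, and 99.80% of 5000 simulated probes were recovered exactly. Where a probe was divided by its own median, giving back its ratios cannot detect a factor common to its samples. A few probes could be off by such a factor. After leaving out 64 control probes, the 45037 others were quantile normalised, 16 was added and log2 taken. limma 3.58.1 (lmFit, eBayes, R 4.3.3) was fitted to all probes and tested on simulated data. A gene was its 1-symbol probe of highest mean, and p was adjusted over 18193 genes. Probe names came from the platform annotation. The members, gene lists and isoform groups were chosen with earlier results of these data known. Named were all members, the 15 most similar other genes, and up to 3 of the brightest genes of other lists. Casq2, Myh7b, Cox8b and most genes of the closing observations were named after their values were seen. Alternatives were other pseudocounts, scalings, probe filters and probe summaries, the deposited ratios, array weights, a replicate block and samples left out. Python 3.11.15 was also used. The number of arrays limits the precision.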

Additional observations from a re-analysis of the deposited data

Results flagged for a closer look

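In 4 of the 80 groups of 4 samples examined (each member's log2 signal and 4 scores, in each treatment group), 1 sample stood far from the other 3. Chance would flag about 1 in 20 independent groups. These groups share arrays, most of their genes vary together and the scores are made of them, so the number cannot be judged against that rate. Vehicle sample 1 was the high sample for Myh2, at 7.41 against 4.15 to 4.36 in the other vehicle samples, for Tcap, at 7.87 against 5.24 to 5.64, and for Ckmt2, at 7.20 against 4.17 to 4.60. These are 3 genes in which vehicle sample 3 showed little or no excess over vehicle samples 2 and 4. Vehicle sample 4 was the high sample for Myh8, at 5.30 against 4.52 to 4.65, all within the dim range.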

How the results depend on the processing

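In every setting tried limma called 0 members and 0 probes at an adjusted p under 0.05. Unadjusted p under 0.05 was reached by 1 member each with a pseudocount of 4 (Tnnt1), with the replicate block (Tnnt1), without vehicle sample 1 and SKI-606 sample 2 (Tnni1), and without SKI-606 samples 1 and 4 and vehicle sample 3 (Myl3), and by 0 to 2 when single samples were left out. No label pairs the replicate numbers, and they were treated as unpaired. Deviations of same-numbered samples correlated at 0, 0.13, -0.27 and -0.13, which cannot show whether the animals were paired. The block changed no other call. The muscle score difference ran from 0.12 to 0.43 over the other settings and from -0.36 to 0.93 without single samples, and the fast minus slow difference from 0.14 to 0.83 and from -0.77 to 1.22. Array weights and the replicate block, which act only in a fit, gave no value for the scores. The fast minus slow difference had none where dim probes were left out, since no slow member was then left. Signs turned with array weights for Acta1 (-0.69), Mylpf (-0.38), Myh4 (-0.53), Atp2a1 (-0.03) and Ckm (-0.61), with a pseudocount of 4 for Acta1 (-0.06), and without the 3 squamous samples for Tnni1 (-0.12). The cause was not tested. Without single samples these ran from -1.08 to 1.35 for Acta1, -0.82 to 1.61 for Mylpf, -1.04 to 1.55 for Myh4, -0.39 to 1.79 for Atp2a1 and -0.87 to 1.39 for Ckm. The number of members above 0 was 8 of 36 with array weights, and 18 of the 21 members left where probes needed a mean signal of at least 50. The median of all genes was 0.10 with array median scaling and 0.16 on the deposited ratios, where that of the members was 0.28 and 0.31. Probes with an unadjusted p under 0.05 numbered 3771, and 1693 with the filter on dim probes, which leaves fewer to test, and 1786 without the 3 squamous samples. Dim members, near the floor in every sample, limit what the slow isoforms can show.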

Other observations

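Some muscle-related genes of the lists departed wholly or in part from the order of the sarcomere genes, and are given here as values chosen after they were seen. Xirp1, a muscle protein of cell junctions, had 167, 9.1, 2.4 and 3.6 across vehicle samples 1 to 4 and 19.6, 3.6, 1.1 and 4.1 across SKI-606 samples 1 to 4, and so was high in vehicle sample 1 and at the floor in SKI-606 sample 2. Apobec2, a muscle cytidine deaminase family member, had 226, 45.4, 104 and 3.6 in vehicle and 77.2, 189, 518 and 13.4 in SKI-606 samples, with its highest signal in SKI-606 sample 3, which had little of the sarcomere genes. Car3, a carbonic anhydrase of slow muscle and fat, had 3405, 272, 196 and 1565 in vehicle and 869.6, 4504, 251 and 918 in SKI-606 samples, and vehicle sample 4, rich in fat markers, came next after vehicle sample 1. Sln, sarcolipin, a regulator of the calcium pump, had 34.2, 4.2, 10.6 and 7.0 in vehicle and 80.2, 35.9, 1.1 and 9.1 in SKI-606 samples. Its highest samples were those of most sarcomere genes, in another order. Actc1, the cardiac and fetal alpha-actin, had 42.6, 2.0, 14.1 and 14.5 in vehicle and 83.5, 9.1, 11.4 and 6.6 in SKI-606 samples, and both genes were highest in SKI-606 sample 1. Ucp1, the uncoupling protein of brown fat, stood at 208 in SKI-606 sample 2, against 10 or less elsewhere.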
